A study of Homo sapiens with 9 samples.

Results

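The genes described here are those of 5 matrix metalloproteases (MMP1, MMP2, MMP3, MMP9 and MMP14), of the plasminogen activators PLAU and PLAT, and of the urokinase receptor PLAUR. They were measured in U87 cells, an established human glioma line, on Affymetrix expression arrays with 1 array per sample. The members were taken as every probe set whose platform annotation gives exactly 1 gene symbol, equal to 1 of these 8 names. This gave 16 probe sets for the 8 genes, out of 54675 probe sets and 19775 single-symbol genes on the array. MMP14 had 4 probe sets, MMP2 and PLAUR had 3 each, PLAU had 2, and MMP1, MMP3, MMP9 and PLAT had 1 each, so the probe sets of a gene are repeated readings of 1 transcript pool and not separate genes. One group of cultures received miR-376a*A, another miR-376a*G, and the last a control miRNA. All were given as duplexes at 50 nM with a lipid reagent (Lipofectamine RNAiMAX), and RNA was taken 24 h later from 3 biological replicates per group. Every group was thus transfected, the control included, and the samples used here hold no untransfected cells.

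Matrix metalloproteases are zinc enzymes that are made as inactive precursors and cut collagens, other matrix proteins and cell-surface proteins. PLAU (urokinase, uPA) and PLAT (tissue-type activator, tPA) are serine proteases that turn plasminogen into plasmin, which degrades fibrin and can activate metalloprotease precursors, while PLAUR (uPAR) holds urokinase at the cell surface. In glioma this system is known mainly for its part in invasion of brain tissue. A miRNA binds its targets chiefly through its seed. RNA editing by adenosine deaminases can change this miRNA inside its seed. Published studies use A for the unedited and G for the edited form. The unedited sequence is shown because the edited base lies in its seed. The name miR-376a* was formerly used for the miRNA that RefSeq lists as hsa-miR-376a-5p (gene MIR376A1), at chr14:101040788-101040809 on the plus strand of GRCh38.p14. Its sequence as given by RefSeq is printed below with the seed, bases 2 to 8, in capitals. The sequence of the transfected duplexes is not given in the sources used here.
hsa-miR-376a-5p: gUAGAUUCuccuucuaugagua

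The deposited values are probe-set signals in arbitrary units that were already on a shared scale, with median array signals between 18.0 and 20.4. Within groups the arrays correlated with r between 0.9846 and 0.9947 across tested probe sets, which are not independent replicates. Single arrays spread around their group mean with an SD (log2) of 0.102 to 0.114 for all miR-376a* cultures, against 0.166, 0.145 and 0.114 for the control cultures 1, 2 and 3. Of the markers for the labelled cells, VIM, CD44, CAV1, TNC and FN1, which mark mesenchymal glioma lines, had signals of 1494 to 2611 on all arrays. The astrocyte markers GFAP and S100B lay between 0.521 and 2.43, too low to be tested. The leukocyte markers PTPRC and CD14, the epithelial markers CDH1, KRT19 and CLDN4 and the endothelial markers CDH5 and VWF were at most 11.7, also below the filter. Among the markers that passed the filter were the glial SLC1A3 (128 to 260) and OLIG2 (15.2 to 23.5), the endothelial PECAM1 (41.3 to 87.3) and KDR (28.6 to 66.2), the epithelial EPCAM (12.0 to 20.5) and the leukocyte CD3E (4.60 to 22.3). In bulk RNA of this kind, fewer cells that express a gene and less RNA per cell cannot be told apart.

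MMP1 and PLAUR signals were higher and MMP2 signals lower after miR-376a*G than after the control miRNA, by 1.32-fold to 1.44-fold. MMP2 201069_at was also lower and MMP1 higher with miR-376a*A, though this MMP1 call held in only 7 of 16 alternatives. PLAU 211668_s_at was higher with each form. With miR-376a*A the largest differences among the members were falls of MMP14 on 3 of its 4 probe sets. The MMP14 falls on 2 of these probe sets also separated the forms from each other. MMP3, MMP9 and PLAT passed no test. Differences were tested on the log2(signal + 16) scale with limma across 32768 probe sets, and a probe set passed when its p, adjusted over all of them by Benjamini-Hochberg, was under 0.05. Fold values on this scale understate the change of dim probe sets. The filter on low signals kept 15 of the 16 member probe sets.

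**Figure D1:**
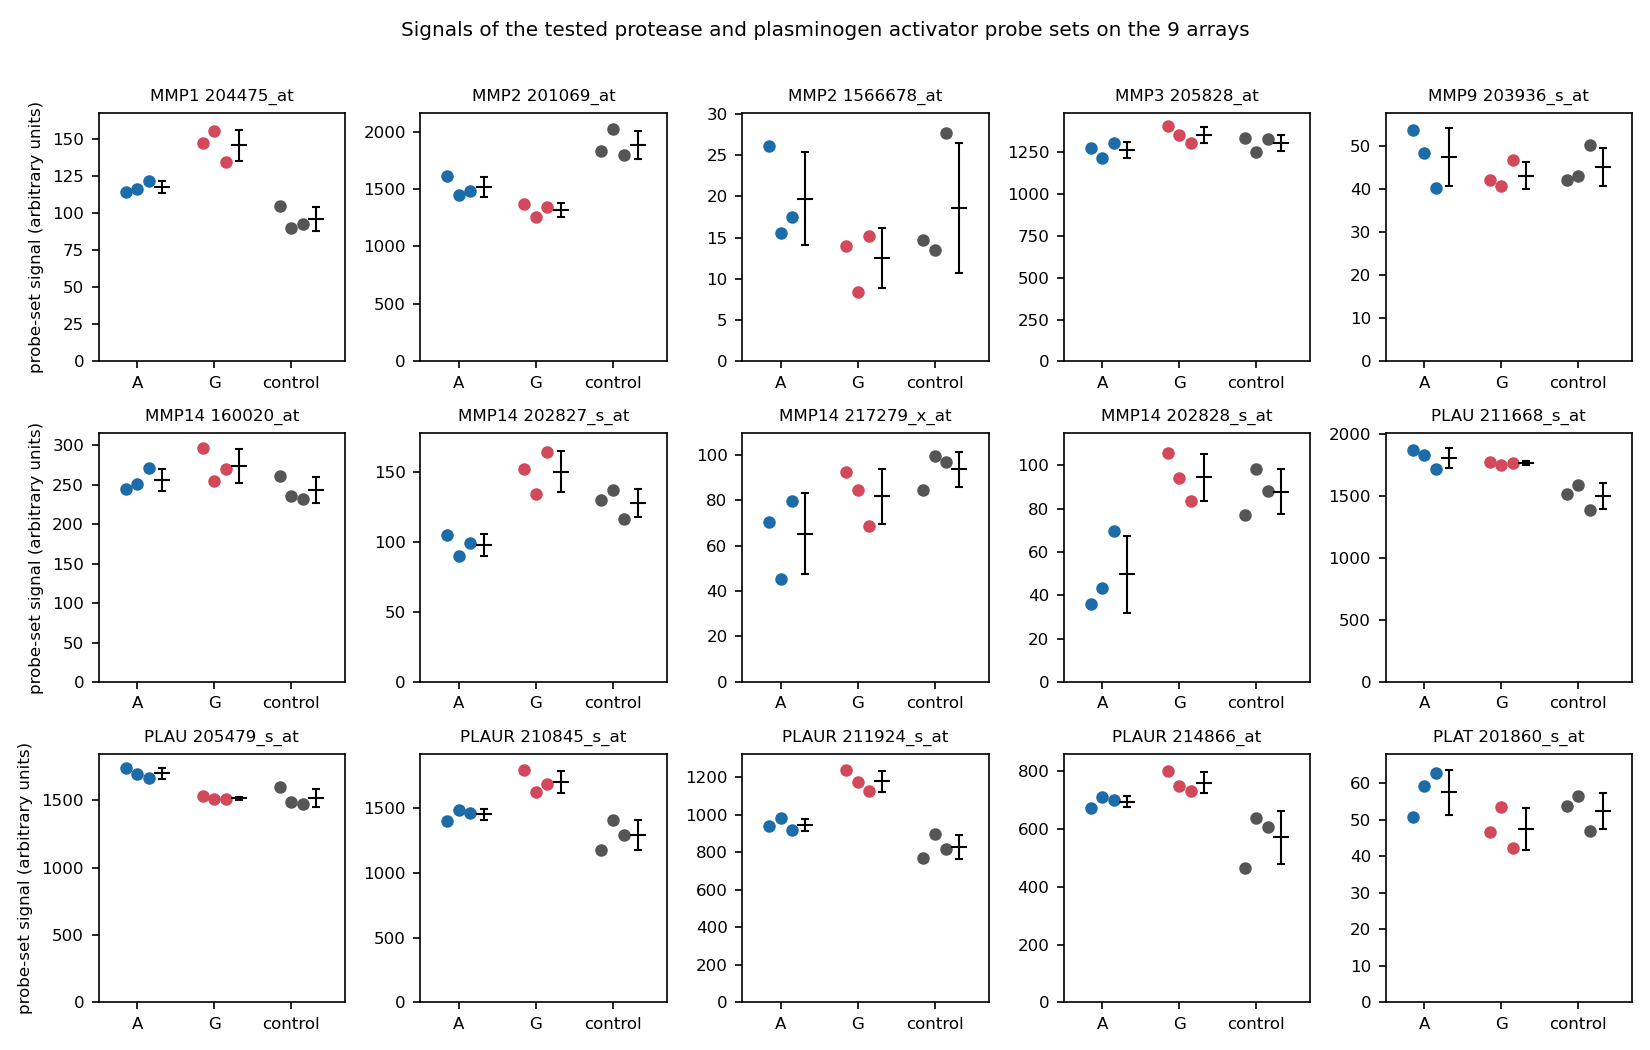
Probe-set signal in arbitrary units (vertical axes, each panel from 0 with its own range) of the 15 tested member probe sets on the 9 arrays, with miR-376a*A (A), miR-376a*G (G) and control miRNA from left to right in each panel. Points are arrays, and the bar beside them is the mean ± SD (n = 3); MMP2 201069_at is highest in the control group, while MMP1 and the PLAUR probe sets are highest with miR-376a*G.

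With miR-376a*A, 6 of the 15 tested member probe sets (40%) passed against the control, 2 as higher and 4 as lower. Over all probe sets tested 21.3% passed, 10.3% as higher and 11.1% as lower. These calls came from 4 genes, since 3 of them belong to MMP14. The groups did not overlap in 60% of the member probe sets, against 36.7% of all probe sets. The median log2 difference of the members was 0.07, against 0.02 over all probe sets. The count of 6 became 3 without miR-376a*A replicate 2 (1 higher, 2 lower). The balance of directions also turned, to 4 higher and 2 lower without control replicate 2, and to 5 higher and 4 lower with a filter at the 60th percentile. With 1 probe set per gene, 2 passed as higher and 1 as lower. With each array centred on its own median, the split of all calls moved to 2634 higher and 4343 lower, against 3360 higher and 3628 lower as deposited.

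With miR-376a*G, 6 of the 15 probe sets (40%) also passed, 5 as higher and 1 as lower, again from 4 genes. Over all probe sets 25.8% passed, 11.5% as higher and 14.3% as lower. The groups did not overlap in 40% of the members and 39.1% of all probe sets. The median log2 difference was 0.09 for the members and -0.02 over all probe sets. The comparisons with the control share the same 3 control arrays.

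Set directly against miR-376a*G, miR-376a*A gave 5 lower member probe sets (33.3%) and 0 higher, in 3 genes. Over all probe sets 18.1% passed in this comparison, 10.2% as higher and 7.95% as lower. The forms did not overlap in 66.7% of the members and 42% of all probe sets. At an unadjusted p under 0.05, 2 further member probe sets were higher with miR-376a*A, MMP2 201069_at and PLAU 205479_s_at. The member count dropped to 3 when any single miR-376a*A array, or miR-376a*G replicate 1 or 2, was left out. Centring each array on its median moved the split of all calls between the forms to 2407 higher and 3677 lower, against 3338 and 2604 as deposited, and left 5 lower and 0 higher among the members.

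**Figure D2:**
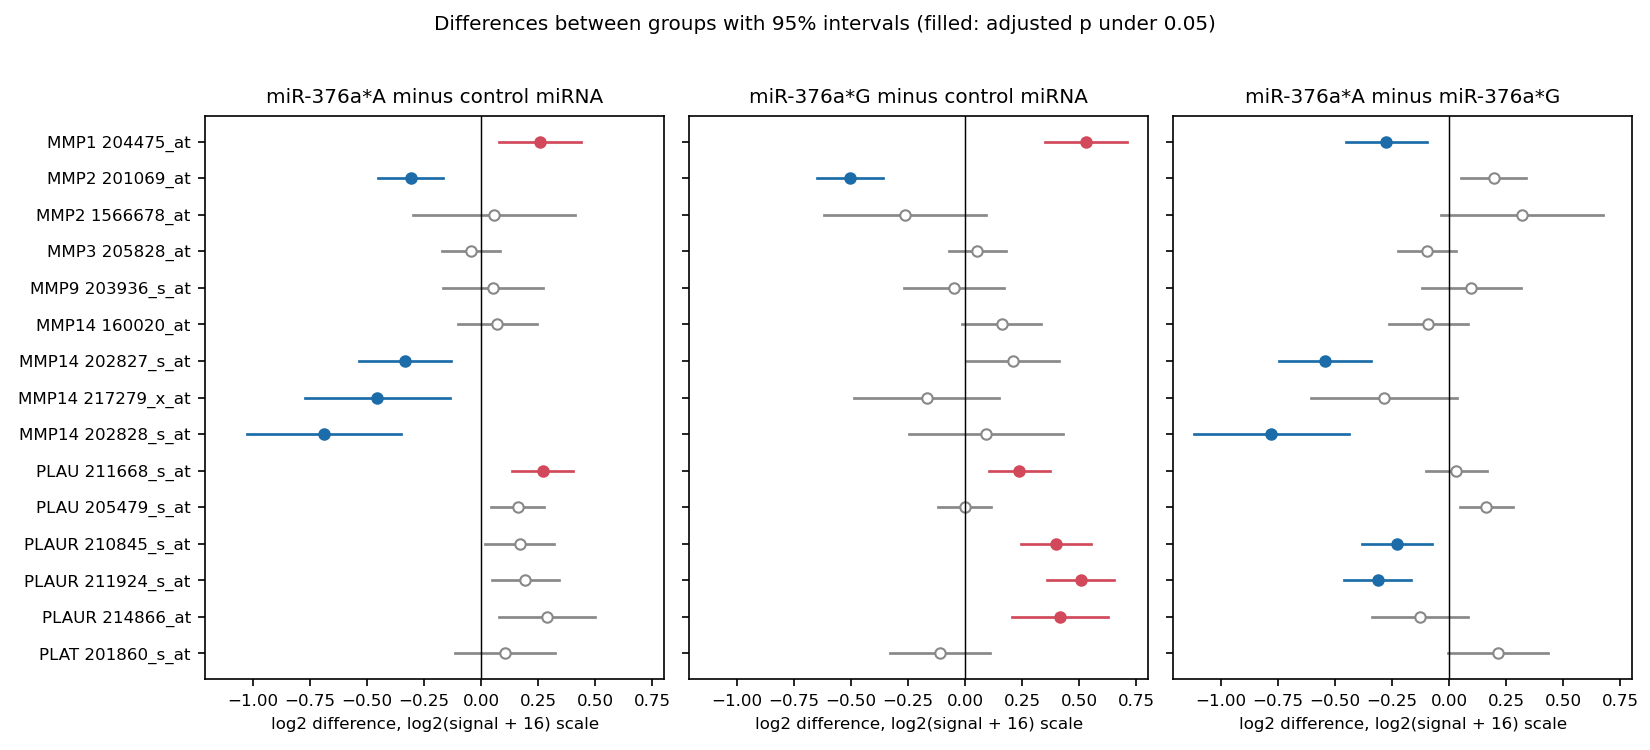
Log2 differences of the 15 tested member probe sets (rows) in the 3 comparisons (panels), on the log2(signal + 16) scale, with the 95% interval from limma as a line. Filled points passed at an adjusted p under 0.05, red for higher and blue for lower, and open grey points did not; 6, 6 and 5 points are filled from left to right.

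MMP1, the interstitial collagenase that cleaves fibrillar collagens, had signals of 114, 116 and 122 with miR-376a*A, 147, 155 and 134 with miR-376a*G and 105, 90.1 and 92.4 with the control miRNA. All 3 groups lay apart, in the order miR-376a*G, miR-376a*A, control. MMP1 rose with miR-376a*G, at 145.4 ± 10.4 against 95.8 ± 7.93 in the control (SD, n = 3 each), a log2 difference of 0.53 ± 0.0828 (SE, limma adjusted p = 0.000503). This call held in all 16 alternatives run, at 0.39 to 0.60. The rise with miR-376a*A was 0.26 ± 0.0828 (SE, limma adjusted p = 0.0436). It held in 7 of 16 alternatives. Dropping any single miR-376a*A array, or control replicate 2 or 3, ended it (adjusted p 0.0829 to 0.141). Between the forms MMP1 was lower with miR-376a*A, by 0.28 ± 0.0828 (SE, limma adjusted p = 0.0361). Dropping any single miR-376a*A array, or miR-376a*G replicate 1 or 2, ended this too (adjusted p 0.0664 to 0.151).

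MMP3, stromelysin-1, which cuts several matrix proteins and can activate other metalloprotease precursors, was bright on all arrays. Its signals were 1274, 1213 and 1303 with miR-376a*A, 1404, 1352 and 1304 with miR-376a*G and 1333, 1250 and 1328 with the control. The forms did not overlap, by the smallest of margins (1303.19 against 1303.84), and each form overlapped the control. Against the control the log2 difference was -0.04 (95% interval -0.17 to 0.08) with miR-376a*A. With miR-376a*G it was 0.05 (-0.07 to 0.18). Between the forms it was -0.10, with an interval of -0.22 to 0.03.

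MMP2 (gelatinase A), which cuts denatured collagens and basement-membrane collagen, was measured mainly by probe set 201069_at. Its signals were 1615, 1449 and 1481 with miR-376a*A, 1367, 1252 and 1345 with miR-376a*G and 1833, 2020 and 1795 with the control. The 3 groups lay apart, with the control highest and miR-376a*G lowest. MMP2 fell with miR-376a*G to 1322 ± 60.96, against 1883 ± 120.7 in the control (SD, n = 3 each), a log2 difference of -0.50 ± 0.0665 (SE, limma adjusted p = 0.000133). It also fell with miR-376a*A, to 1515 ± 88.1 (SD, n = 3), a difference of -0.31 ± 0.0665 (SE, limma adjusted p = 0.00541). Each of these calls held in all 16 alternatives, at -0.57 to -0.45 for miR-376a*G and -0.40 to -0.26 for miR-376a*A. The forms differed by 0.19 ± 0.0665 (SE, limma adjusted p = 0.0604), which did not pass. It did pass after quantile normalization (adjusted p = 0.0381), with a filter at the 60th percentile (0.0487) and in a fit of only these 6 arrays (0.0195).

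The other MMP2 probe sets were dim. Probe set 1566678_at had signals of 26.1, 15.6 and 17.5 with miR-376a*A, 13.9, 8.45 and 15.2 with miR-376a*G and 14.7, 13.4 and 27.7 with the control. Each form overlapped the control, while the forms lay narrowly apart from each other. No difference passed, at 0.06 ± 0.164 (SE) with miR-376a*A and -0.26 ± 0.164 (SE) with miR-376a*G against the control, and 0.32 ± 0.164 (SE) between the forms. Probe set 1566677_at lay between 0.796 and 5.08 on all arrays, below the filter, and was not tested. The fall of MMP2 thus rests on 1 probe set.

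MMP9 (gelatinase B), the other enzyme with this substrate range, had signals of 53.7, 48.6 and 40.3 with miR-376a*A, 42.1, 40.7 and 46.8 with miR-376a*G and 42.3, 43.1 and 50.3 with the control. All groups overlapped. With miR-376a*A the log2 difference from the control was 0.05 (95% interval -0.17 to 0.27). With miR-376a*G it was -0.05 (-0.27 to 0.17). Between the forms it was 0.10 (-0.12 to 0.32).

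MMP14 (MT1-MMP), a membrane-anchored metalloprotease known as an activator of the MMP2 precursor, was read by 4 probe sets that did not share a pattern. On 202828_s_at the signals were 35.8, 43.5 and 69.8 with miR-376a*A, 105.5, 94.3 and 83.6 with miR-376a*G and 77.3, 98.1 and 87.9 with the control. All miR-376a*A arrays lay below all others, while miR-376a*G and the control overlapped. This was the largest difference of any member, a fall of 1.61-fold with miR-376a*A against the control (-0.69 ± 0.156, SE, limma adjusted p = 0.00755) and a level 1.72-fold lower with miR-376a*A than with miR-376a*G (-0.78 ± 0.156, SE, limma adjusted p = 0.00382).

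On 202827_s_at the MMP14 signals were 105, 89.7 and 99.3 with miR-376a*A, 152, 135 and 164 with miR-376a*G and 130, 137 and 117 with the control. The miR-376a*A arrays again lay below all others. The log2 difference was -0.33 ± 0.0927 (SE, limma adjusted p = 0.0217) for miR-376a*A against the control and -0.54 ± 0.0927 (SE, limma adjusted p = 0.00124) against miR-376a*G. The call against the control was lost on dropping replicate 2 or 3 of miR-376a*A or replicate 2 of the control (adjusted p 0.0975, 0.0578 and 0.0553). The call against miR-376a*G held in all 15 alternatives run for this probe set.

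On 217279_x_at, of a kind whose probes may also bind related transcripts, MMP14 signals were 70.6, 45.2 and 79.6 with miR-376a*A, 92.3, 84.4 and 68.6 with miR-376a*G and 84.6, 99.3 and 96.7 with the control. Only miR-376a*A and the control did not overlap. MMP14 fell there by 0.46 ± 0.148 (SE, limma adjusted p = 0.0436) with miR-376a*A, a call that held in 6 of 15 alternatives. It was lost on dropping replicate 1 or 2 of miR-376a*A or replicate 2 or 3 of the control, and with miR-376a*A replicate 2 left out it was -0.27 (limma adjusted p = 0.169). Between the forms it stood at -0.29 (limma adjusted p = 0.209) and did not pass. The brightest MMP14 probe set, 160020_at, had 245, 251 and 271 with miR-376a*A, 297, 255 and 270 with miR-376a*G and 262, 235 and 232 with the control. Its groups overlapped in each comparison, and it stood at 0.07 (95% interval -0.10 to 0.24) for miR-376a*A against the control and at -0.09 (-0.26 to 0.08) between the forms. With miR-376a*G against the control no MMP14 probe set passed, and the 4 values ran from -0.17 to 0.21. Without control replicate 1, 160020_at passed as higher with miR-376a*G, at 0.21 (limma adjusted p = 0.0482).

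PLAU, the urokinase gene, was bright on both its probe sets. On 211668_s_at the signals were 1870, 1826 and 1718 with miR-376a*A, 1775, 1749 and 1767 with miR-376a*G and 1512, 1591 and 1385 with the control. Both forms lay above all control arrays and overlapped each other. PLAU rose on this probe set by 0.27 ± 0.0618 (SE, limma adjusted p = 0.008) with miR-376a*A and by 0.24 ± 0.0618 (SE, limma adjusted p = 0.0131) with miR-376a*G. The first call held in all 16 alternatives, and the second in all but 1, since without control replicate 3 it was 0.18 with an adjusted p of 0.0568. Between the forms the difference was 0.03 with a 95% interval of -0.10 to 0.17.

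On 205479_s_at, PLAU signals were 1740, 1694 and 1661 with miR-376a*A, 1529, 1509 and 1509 with miR-376a*G and 1595, 1487 and 1475 with the control. Only miR-376a*A lay above the other groups here. Its difference from the control was 0.16 ± 0.0539 (SE, limma adjusted p = 0.051), which did not pass, though it did when control replicate 1 was left out (0.20, adjusted p = 0.00623). After quantile normalization it was 0.05 (adjusted p = 0.604). With miR-376a*G against the control the value was -0.0021 with a 95% interval of -0.12 to 0.11, so the rise of PLAU with miR-376a*G rests on 1 of 2 probe sets. Between the forms it was 0.16 ± 0.0539 (SE, limma adjusted p = 0.0542) and did not pass, though it did in a fit of only these 6 arrays (adjusted p = 0.00733).

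PLAT, the gene of the tissue-type activator, was dim, with 50.7, 59.1 and 62.7 with miR-376a*A, 46.5, 53.5 and 42.1 with miR-376a*G and 53.7, 56.4 and 46.9 with the control. Its groups overlapped in every comparison. PLAT stood at 0.10 ± 0.101 (SE) with miR-376a*A and at -0.11 ± 0.101 (SE) with miR-376a*G, and neither difference from the control passed. Between the forms it was 0.21 (95% interval -0.01 to 0.43), which did not pass either (limma adjusted p = 0.171).

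PLAUR, the receptor that binds urokinase at the cell surface, was higher with miR-376a*G on all 3 probe sets. On 211924_s_at the signals were 937, 980 and 918 with miR-376a*A, 1236, 1175 and 1124 with miR-376a*G and 770, 894 and 814 with the control. The 3 groups lay apart, with miR-376a*G highest and the control lowest. PLAUR rose there to 1178 ± 55.8 with miR-376a*G, against 826 ± 62.9 in the control (SD, n = 3 each), a log2 difference of 0.51 ± 0.0681 (SE, limma adjusted p = 0.000159). On 210845_s_at it had 1405, 1485 and 1467 with miR-376a*A, 1797, 1628 and 1692 with miR-376a*G and 1176, 1412 and 1293 with the control. On 214866_at it had 674, 710 and 701 with miR-376a*A, 803, 748 and 732 with miR-376a*G and 466, 639 and 608 with the control. All miR-376a*G arrays were above all control arrays on both, and control replicate 1 was the lowest array on all 3 PLAUR probe sets. The rises with miR-376a*G were 0.40 ± 0.0703 (limma adjusted p = 0.00121) and 0.42 ± 0.098 (SE, limma adjusted p = 0.0075). All 3 calls held in every alternative run for them.

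With miR-376a*A the PLAUR differences from the control were 0.17 ± 0.0703 on 210845_s_at, 0.19 ± 0.0681 on 211924_s_at and 0.29 ± 0.098 on 214866_at (SE). None passed, with limma adjusted p of 0.108, 0.0616 and 0.0535. All 3 passed without control replicate 2, with adjusted p of 0.0221, 0.0155 and 0.0151. Without control replicate 1 they were 0.10, 0.14 and 0.15, with adjusted p of 0.229, 0.103 and 0.0697. On 210845_s_at quantile normalization also lowered the value, to 0.09 (adjusted p = 0.253). Between the forms PLAUR was lower with miR-376a*A on 211924_s_at, by 0.31 ± 0.0681 (SE, limma adjusted p = 0.00634), which held in all 15 alternatives. On 210845_s_at it was lower by 0.23 ± 0.0703 (SE, limma adjusted p = 0.0395), a call lost on dropping any single array of the 6 compared (adjusted p 0.0623 to 0.134). On 214866_at the difference of -0.13 ± 0.098 (SE) did not pass, although the forms did not overlap.

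Promoter sequences were on hand from RefSeq (GRCh38.p14) for 3 of the 8 genes, MMP14, PLAU with 2 start sites, and PLAUR. They are shown because no other member was covered, and a link between their letters and the signals was not tested. The 250 bases before each start were searched on both strands for TGANTCA, the site of AP-1 factors, and for GGGCGG, the GC box. No promoter of these genes held both. AP-1 letters were found once in PLAUR, 186 to 180 bases before the start, and in 6.57% of 35116 promoters in the table. GC box letters were found once in MMP14 and 3 times at the downstream start of PLAU, and in 42.6% of all promoters. Such a match describes the letters only. The windows below lie at chr19:43670323-43670382 on the minus strand for PLAUR, chr10:73911054-73911112 on the plus strand for PLAU and chr14:22836492-22836550 on the plus strand for MMP14, with the matches in capitals.
PLAUR: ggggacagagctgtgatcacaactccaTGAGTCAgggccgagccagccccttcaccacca
PLAU: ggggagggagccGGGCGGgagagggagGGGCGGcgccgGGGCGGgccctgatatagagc
MMP14: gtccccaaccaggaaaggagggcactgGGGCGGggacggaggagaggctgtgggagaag

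Genes that work with these proteases were read from 4 lists, each gene by its brightest tested probe set. Of the 7 inhibitors and activators of metalloproteases, 1 rose and 0 fell with miR-376a*A, and 0 rose and 4 fell with miR-376a*G. Over all probe sets the shares were 10.3% higher and 11.1% lower with miR-376a*A, and 11.5% and 14.3% with miR-376a*G. The gene of the matrix-bound inhibitor TIMP3 had signals of 179, 172 and 162 with miR-376a*A, 73.6, 73.3 and 71.3 with miR-376a*G and 80.7, 120.6 and 98.6 with the control. The groups lay apart, in the order miR-376a*A, control, miR-376a*G. TIMP3 rose by 0.70 ± 0.108 (SE, limma adjusted p = 0.000589) with miR-376a*A, and all 3 other tested probe sets also passed as higher. With miR-376a*G it fell by 0.37 ± 0.108 (SE, limma adjusted p = 0.0231), while the other probe sets ran from -0.19 to 0.06 and did not pass. Dropping any single miR-376a*G array, or control replicate 2 or 3, ended this call (adjusted p 0.0552 to 0.0706), and it was -0.25 with control replicate 2 left out. Between the forms TIMP3 was 2.11-fold higher with miR-376a*A (limma adjusted p = 1.77e-05), with all 3 other probe sets also higher.

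The other falls of this list with miR-376a*G were those of the inhibitor genes RECK and TIMP2 and of FURIN, a protease that activates MMP14 and other precursors. RECK fell by 0.49 ± 0.107 (SE, limma adjusted p = 0.00487), TIMP2 by 0.30 ± 0.079 (SE, limma adjusted p = 0.015) and FURIN by 0.47 ± 0.142 (SE, limma adjusted p = 0.0288). The other tested probe sets of RECK (-0.14 to -0.10) and TIMP2 (-0.14 to -0.13) did not pass. The TIMP2 call was lost on dropping miR-376a*G replicate 2 (adjusted p = 0.0706). The FURIN call was lost on dropping replicate 2 or 3 of miR-376a*G or replicate 2 of the control (adjusted p 0.107, 0.0696 and 0.0898), and with control replicate 2 left out FURIN stood at -0.30. The list median was -0.05 with miR-376a*A and -0.30 with miR-376a*G, against 0.02 and -0.02 over all probe sets.

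Among 8 tested partners of the plasminogen system, 0 passed with miR-376a*A in limma (3 at an unadjusted p under 0.05), and 1 rose and 1 fell with miR-376a*G, against 21.3% and 25.8% of all probe sets. PLGRKT, a cell-surface plasminogen receptor, had 540, 593 and 594 with miR-376a*A, 660, 717 and 653 with miR-376a*G and 400, 530 and 526 with the control. It rose by 0.48 ± 0.0978 (SE, limma adjusted p = 0.00325) with miR-376a*G. MRC2, a collagen uptake receptor that associates with PLAUR, fell by 0.24 ± 0.0703 (SE, limma adjusted p = 0.0251) with miR-376a*G, a call lost on dropping miR-376a*G replicate 2 or 3 (adjusted p 0.102 and 0.0976). It was higher with miR-376a*A than with miR-376a*G by 0.28 ± 0.0703 (SE, limma adjusted p = 0.0158), which was lost on dropping replicate 1 or 3 of miR-376a*A or replicate 2 or 3 of miR-376a*G (adjusted p 0.0571 to 0.076). The other tested MRC2 probe set did not pass with miR-376a*G against the control (-0.19). Between the forms that probe set passed as higher with miR-376a*A (0.42). SERPINE2, the gene of an inhibitor of plasminogen activators, did not pass on its brightest probe set (-0.09 with miR-376a*A and -0.05 with miR-376a*G). Its other probe set passed as lower with miR-376a*A, at -0.30, and did not pass with miR-376a*G, at -0.24. Other probe sets also passed where the brightest did not. They were 1 of ENO1, lower with miR-376a*A (-0.34) and miR-376a*G (-0.43), and 1 each of LRP1 (-0.50) and S100A10 (-0.44), lower with miR-376a*G. Between the forms those of LRP1 (0.34) and S100A10 (0.64) passed as higher with miR-376a*A. Of the 16 genes of this list, 3 had no single-symbol probe set and were not analysed here, and 5 were below the filter.

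Of the 18 other metalloprotease genes 10 could be tested. MMP8, MMP11, MMP12, MMP25, MMP26 and MMP27 were dim, with group mean signals of 10.5 to 26.1 against the filter level of 11.3. With miR-376a*A 0 passed in limma (0 at an unadjusted p under 0.05), while 1, MMP16, rose with miR-376a*G, by 0.34 ± 0.112 (SE, limma adjusted p = 0.0392). Over all probe sets 21.3% passed with miR-376a*A and 25.8% with miR-376a*G. MMP16 (MT3-MMP) is a membrane-anchored relative of MMP14. Its 3 other tested probe sets ran from -0.17 to 0.20 and did not pass. Dropping any single miR-376a*G array, or control replicate 2 or 3, ended the call (adjusted p 0.0706 to 0.121), and the value was 0.22 with control replicate 2 left out. The median over the 10 genes was 0.12 with each form, against 0.02 with miR-376a*A and -0.02 with miR-376a*G over all probe sets.

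Transcription factors of the AP-1 and ETS families, which are known to act on metalloprotease and urokinase genes, were read as 12 tested genes. With miR-376a*A 1 rose and 1 fell, and with miR-376a*G 0 rose and 4 fell, 1 of which was the dim FOSB. Over all probe sets 21.3% and 25.8% passed. FOSL1 had signals of 375, 372 and 390 with miR-376a*A, 266, 231 and 230 with miR-376a*G and 490, 635 and 583 with the control. The groups did not overlap, with the control highest and miR-376a*G lowest. FOSL1 fell 1.48-fold with miR-376a*A (limma adjusted p = 0.000933) and 2.26-fold with miR-376a*G (limma adjusted p = 1.81e-06), and it was 1.53-fold higher with miR-376a*A than with miR-376a*G (limma adjusted p = 0.000486). Among the members, MMP2 201069_at had this same order of groups. MMP1 and PLAUR 211924_s_at and 214866_at had the opposite order, with miR-376a*G highest and the control lowest. A link between FOSL1 and these members was not tested.

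FOSL2 fell by 0.57 ± 0.0784 (SE, limma adjusted p = 0.000178) and JUND by 0.67 ± 0.108 (SE, limma adjusted p = 0.000635) with miR-376a*G. All 4 other tested probe sets of FOSL2 and 2 of 3 of JUND passed as lower too. FOSB, with signals of 5.76, 4.54 and 7.32 with miR-376a*G against 16.7, 18.4 and 17.5 with the control, stood at -0.62 ± 0.115 (SE, limma adjusted p = 0.00174). All its miR-376a*G signals lay below the filter level of 11.3, so FOSB was tested only because it was higher in the other groups, and its call adds no support to the count of the list. JUN rose by 0.20 ± 0.0658 (SE, limma adjusted p = 0.0459) with miR-376a*A, a call lost on dropping any single miR-376a*A array or control replicate 1 or 3 (adjusted p 0.0754 to 0.124). Of its 3 other probe sets 1 passed as higher with miR-376a*A (0.39) and 1 with miR-376a*G (0.35), although the brightest did not pass with miR-376a*G. Between the forms 4 genes of this list were higher with miR-376a*A (FOSL1, FOSL2, JUND and FOSB) and 1, FOS, was lower. Over all probe sets 10.2% passed as higher and 7.95% as lower in this comparison. FOSB adds no support to this count either. FOS was lower by 0.39 ± 0.108 (SE, limma adjusted p = 0.0241) and was dim, at 16.9 to 23.9 with miR-376a*A and 32.5 to 33.5 with miR-376a*G. The JUND call between the forms was lost on dropping replicate 1 or 3 of miR-376a*A or replicate 2 or 3 of miR-376a*G (adjusted p 0.051 to 0.0892). None of the other tested JUND probe sets passed between the forms (0.16 to 0.35), while 3 of the 4 others of FOSL2 passed as higher. The FOS call was lost on dropping miR-376a*A replicate 1 or any single miR-376a*G array (adjusted p 0.0644 to 0.105). On their brightest probe sets 0 of the 5 tested ETS-family genes passed in any of the 3 comparisons in limma, and 0 had an unadjusted p under 0.05. Of their other probe sets, 1 of ETS2 passed as higher with miR-376a*A (0.52) and between the forms (0.48), and 1 of ETV1 passed as lower with miR-376a*G (-0.28).

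**Figure D3:**
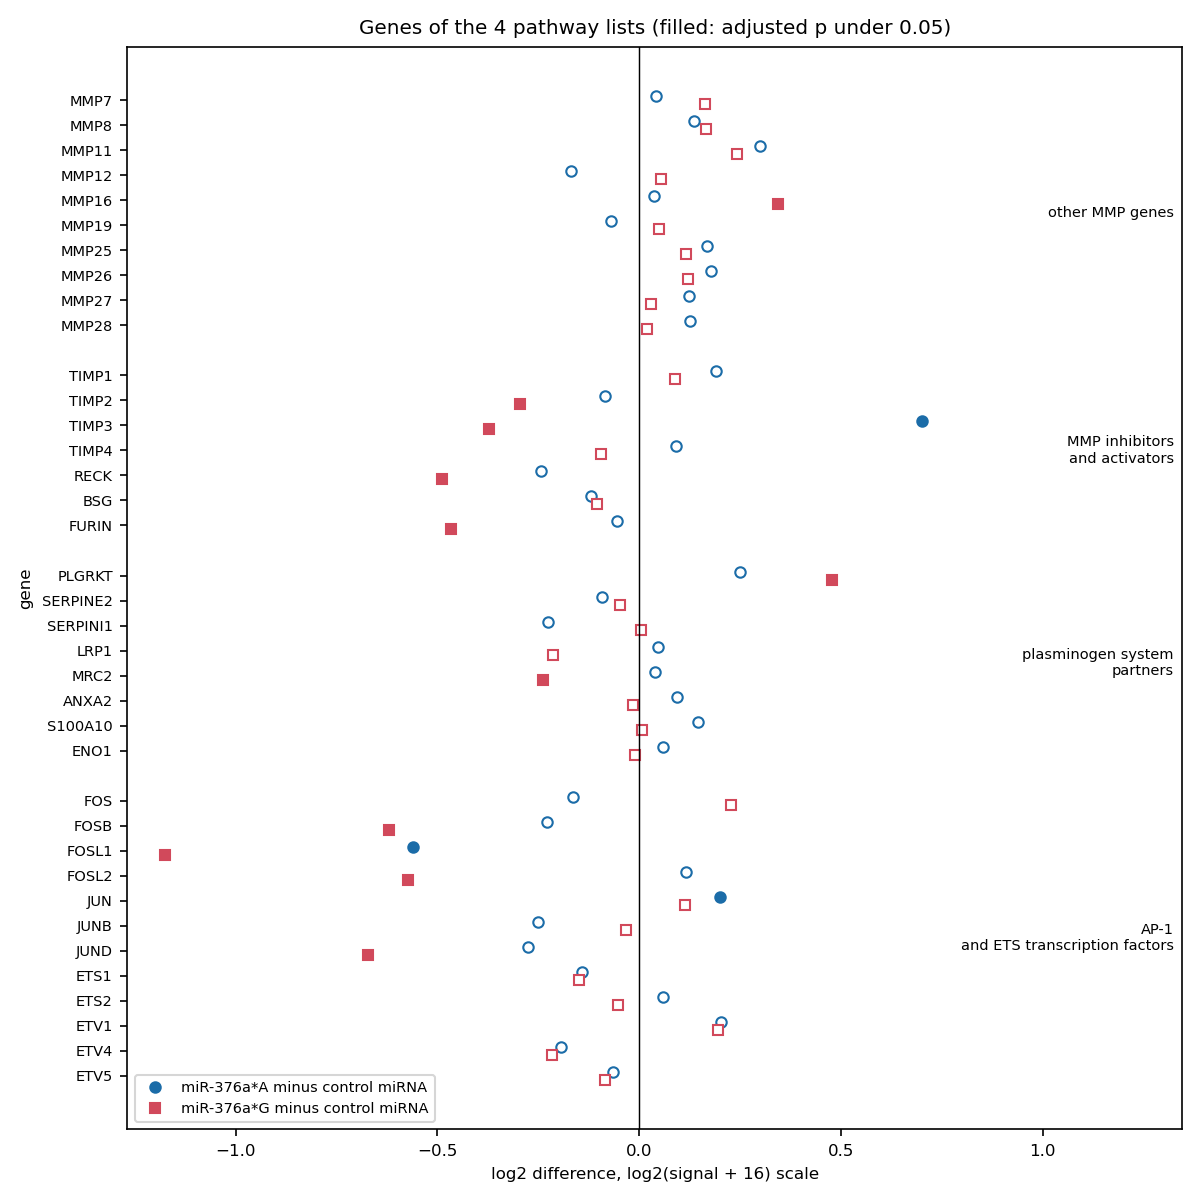
Log2 differences (horizontal axis, log2(signal + 16) scale) of the tested genes of 4 pathway lists (rows), with miR-376a*A against the control as circles and miR-376a*G against the control as squares. Filled symbols passed at an adjusted p under 0.05; TIMP3 is filled on opposite sides of 0 for the forms, and FOSL1 is filled on the left for both.

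The genes whose log2 signals followed each member most closely over the 9 arrays were found by Pearson correlation among 13697 tested single-symbol genes, each by its brightest probe set. The 9 arrays form 3 groups, so such an r includes the differences between groups, and it is given as a description only. MMP2 was followed by TMEM165 (r = 0.993) and NUCB1 (r = 0.978). PLAUR on 210845_s_at was followed by CEBPG (r = 0.995) and the divergent transcript ITGB1-DT (r = 0.986), and MMP1 by CALCB (r = 0.986) and METTL8 (r = 0.978). PLAU on 211668_s_at was followed by LINC01226 (r = 0.973) and TUT1 (r = 0.967). For MMP3 the closest genes were ZSCAN16-AS1 (r = 0.930) and E2F6 (r = 0.897), and for MMP9 they were JAG2 (r = 0.976) and MYO15A (r = 0.943). MMP14 on 160020_at was followed by C1orf216 (r = 0.921) and NARS2 (r = 0.915), and PLAT by S100A1 (r = 0.964) and ATP11A-AS1 (r = 0.958). None of these last 4 probe sets passed in any comparison.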

How the data were processed

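Each array was deposited as 1 linear signal intensity per probe set. The software was GCOS 1.4.0.036, per the submitters' processing notes, and neither its settings nor a scaling target is stated in the sources used here. The deposited arrays shared a 2% trimmed mean of 100.009 to 100.011, which hides any change common to all transcripts. Gene names come from the platform annotation, and 0 symbols changed through Entrez identifiers in RefSeq.

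The 62 array controls were dropped. Tested were the 32768 probe sets whose mean log2(signal + 16) reached the 40th percentile, which corresponds to a signal of 11.3. All 9 arrays entered 1 fit in limma 3.58.1 (R 4.3.3) (lmFit, contrasts, and eBayes with a trend on intensity). It had 6 residual and 6.72 prior degrees of freedom. P-values were two-sided and adjusted by Benjamini-Hochberg over all tested probe sets. The number of arrays limits the precision, and the median SE of a log2 difference was 0.102. Members and lists were chosen with earlier results of these data known. Named were all member probe sets, up to 4 called genes of smallest p per list and comparison, and the 2 genes closest to each member. FOSB between the forms, SERPINE2, ENO1, LRP1, S100A10, ETS2 and ETV1 were named after their values were seen. Alternatives changed the scaling, filter, offset, variance model, probe set rule, arrays fitted or replicate block, or left out 1 array. For genes of the pathway lists they were chosen after the data were seen. Python 3.11.15 with pandas 2.3.3, numpy 2.4.6 and matplotlib 3.10.9 wrote the tables and figures.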

Additional observations from a re-analysis of the deposited data

How the results depend on the processing

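The setting with 1 probe set per single-symbol gene kept all probe sets without a single symbol, so its totals are not gene counts. It tested fewer features than the main fit. Of these, 4177 passed for miR-376a*A against control, 4993 for miR-376a*G against control and 3671 for miR-376a*A against miR-376a*G. In the main fit 6988, 8454 and 5942 probe sets passed. The members that passed were 3, 4 and 2, compared with 6, 6 and 5. Leaving out 1 array gave 4729 to 7700, 5890 to 8998 and 3819 to 4753 probe sets, and 3 to 7, 5 to 7 and 3 to 4 of the members. The lowest total between the forms was that without miR-376a*G replicate 2, and 3961 passed without miR-376a*A replicate 2. Same-numbered arrays deviated with correlations between -0.103 and 0.0628, and differently numbered arrays with correlations between -0.125 and 0.134. Between miR-376a*A and the control each array correlated best with its own number (0.0262 to 0.0628). For pairs with miR-376a*G this did not hold throughout. Correlations this small, from 3 arrays per group, cannot tell whether the numbers pair the samples, and the main fit used no pairing. With a replicate block 6430, 7952 and 5397 probe sets passed, and 4, 6 and 3 of the members. Sign changes occurred only in members that did not pass. Leaving out 1 array did this for MMP2 1566678_at (-0.067 to 0.24) and MMP9 (-0.020 to 0.13) with miR-376a*A, and for MMP9 (-0.090 to 0.011) and PLAU 205479_s_at (-0.023 to 0.033) with miR-376a*G. Median centring did so for PLAU 205479_s_at with miR-376a*G (0.018) and PLAU 211668_s_at between the forms (-0.027), and quantile normalization for MMP3 with miR-376a*G (-0.018) and PLAU 211668_s_at between the forms (-0.0084). The cause was not tested. The SE of a log2 difference was 0.101 for PLAT and MMP9 and 0.164 for the dim MMP2 1566678_at, against a median of 0.102 over all probe sets.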
